A study of Coilia nasus with 12 samples.

Results

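Acidic chitinase, encoded by CHIA, is a secreted enzyme of the glycoside hydrolase 18 family that cuts chitin, the polymer of N-acetylglucosamine in the shells of crustaceans and insects. In mice it is made by the chief cells of the stomach beside pepsinogen and works at low pH. In fish that swallow whole prey, stomach chitinases open the shells of crustaceans, and fish genomes carry several copies of the gene. Every unigene whose deposited gene name was CHIA, in upper or lower case, was taken, which gave 9 of 63567 unigenes, 18158 of which carried a gene name. A unigene is a transcript group put together from the reads without a genome, so 1 gene may be split over several unigenes. All 9 were annotated as chitinases, with the chitinase enzyme class and the glycoside hydrolase 18 domain.

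The samples were stomachs of 12 Coilia nasus, an anchovy that migrates from the sea to spawn in rivers, taken from single fish. By label 6 fish had taken food (food intake) and 6 had not (no food intake), and the question is how the stomachs of fed fish differ. The labels give no age, sex or time since the meal, and they call the tissue stomach and its source gastric mucosa. Total RNA of each fish made 1 library. The values were read as TPM, transcripts per 1000000 within a library, a scale that is per length and keeps no record of depth.

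The library totals were 984119 to 992092 TPM. All 5 genes of the oxynticopeptic cell list, the acid and pepsinogen cell of the fish stomach (PGA, PGC, ATP4A, ATP4B and KCNQ1), were found, and their summed level was 53031 to 221874 TPM with food intake and 24760 to 162408 TPM without. A pair of libraries stood apart. In food intake 6, 7 unigenes that rise and fall together with a unigene named ART2 took 64.2% of the library, against 4.34% to 26.9% in the other 11. They are called rRNA-like here, with ART2 read as a sign of ribosomal RNA. They were picked by correlation alone, and whether they are ribosomal RNA was not tested. In no food intake 3 the summed smooth muscle level, over the 5 of 5 list genes found, was 26409 TPM, against 1522 to 6691 TPM in the other 11, and the summed oxynticopeptic level was the lowest of all. The summed red blood cell level, over 5 of 7 list genes, was 627 TPM in food intake 6 and 744 TPM in no food intake 3, against 83.8 to 302 TPM elsewhere. Exocrine pancreas genes (11 of 14 found) summed to at most 428 TPM with food intake, in food intake 6, with a median of 48.9 TPM, and to at most 128 TPM with no food intake, with a median of 37.8 TPM, and enterocyte genes (3 of 5 found) to 38.7 to 287 TPM with food intake and 127 to 318 TPM with no food intake. No gene found of any list was at 0 in all libraries. The libraries also fall into sets by 9 unigenes with a chicken mitochondrial best match. These were at 0 in 5 libraries (food intake 2, 3 and 4, no food intake 3 and 5) and above 0 in 7 (food intake 1, 5 and 6, no food intake 1, 2, 4 and 6). The labels do not say what this split is.

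The 4 abundant CHIA unigenes were among the most abundant transcripts of the stomach, and for none of those tested did the difference between feeding groups exceed the spread between fish. Summed over the 9 unigenes, CHIA made up 12.9% ± 4.92 of the library with food intake and 12.9% ± 6.05 with no food intake (SD, n = 6 each). Its share was lowest at 5.63% in food intake 6 and highest at 20.5% in food intake 4 among fed fish, and it ran from 3.39% in no food intake 3 to 20.8% in no food intake 1 among the others. Both low values came from the libraries that stood apart, and whether the rRNA-like or smooth muscle share sets them was not tested. With the rRNA-like unigenes left out and the rest rescaled, the share was 16.1% ± 2.92 with food intake (13.4% to 21.5%) and 14.9% ± 6.46 with no food intake (4.64% to 22.2%). Food intake 6 then lay within the other fed fish, while no food intake 3 was still the lowest of the 12. In bulk stomach RNA, fewer chitinase-making cells and less CHIA RNA in each cell cannot be told apart.

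**Figure D1:**
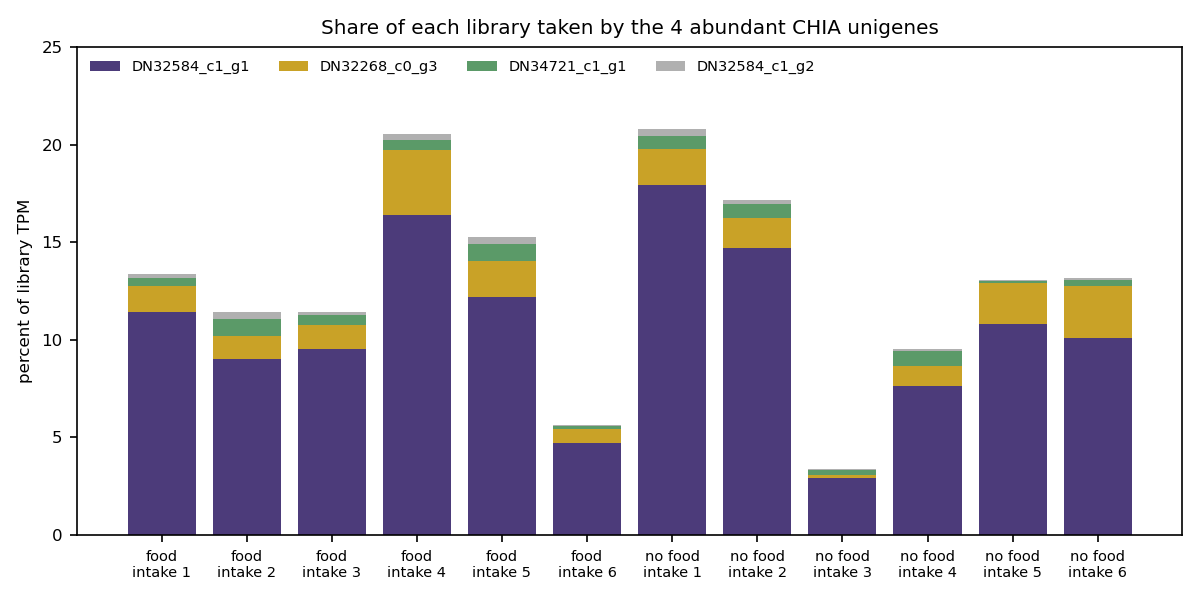
Percent of the summed TPM of each library (vertical axis) taken by the 4 abundant CHIA unigenes, stacked, for the 6 food intake and the 6 no food intake fish. The summed share with all 9 unigenes ran from 5.63% to 20.5% with food intake and from 3.39% to 20.8% with no food intake, and DN32584_c1_g1 was the largest piece in every fish.

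The first unigene by abundance, TRINITY_DN32584_c1_g1, is 2335 bases long, holds 3 assembled isoforms and best matches chitinase1 of the sardine Sardinops melanostictus. Its level was 46591 TPM at the lowest, 103663 at the median and 161740 at the highest with food intake, against 28846, 103302 and 177107 TPM with no food intake. The lowest values were again food intake 6 and no food intake 3, the ranges overlapped over most of their length, and the medians nearly coincided. It was the most abundant of all unigenes in 9 of 12 libraries. In food intake 6 it ranked 5, behind 4 rRNA-like unigenes, in no food intake 3 it also ranked 5, with 3 of the 4 above it rRNA-like, and in no food intake 5 it ranked 2, behind 1 such unigene. Alone it made up 10.5% ± 3.88 of the library with food intake and 10.7% ± 5.27 with no food intake (SD, n = 6 each), a difference of −0.14 percentage points (two-sided exact permutation test over 924 splits, p = 0.963).

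The second unigene, TRINITY_DN32268_c0_g3, is 2016 bases long and best matches chitinase2 of the same sardine, so the pair of most abundant transcripts match different sardine chitinases. It holds 12 assembled isoforms. Its level was 7054 TPM at the lowest, 12445 at the median and 33130 at the highest with food intake, against 1586, 16596 and 26362 TPM with no food intake. The highest was food intake 4 and the lowest no food intake 3, where it ranked 71 in the library, although it was among the 10 most abundant unigenes in 7 of 12 fish. The other 5 no food intake fish lay between 10129 and 26362 TPM.

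The third and the fourth unigenes belong to assembly clusters with another CHIA member, so reads of near-identical stretches may be split between them. TRINITY_DN34721_c1_g1, 1160 bases with 8 isoforms and a sardine chitinase1 best match, had 1591, 5124 and 8687 TPM (lowest, median, highest) with food intake and 1050, 4661 and 7544 TPM with no food intake. TRINITY_DN32584_c1_g2, 1024 bases with 6 isoforms, shares the cluster of the first unigene and best matches a partial acidic mammalian chitinase-like protein of the herring Clupea harengus. It had 634, 2545 and 3560 TPM with food intake, against 434, 1161 and 3790 TPM with no food intake. For both, the groups overlapped. Within the fourth unigene, no food intake 1 had the highest value of all 12 fish, and the next ones were food intake 5, 2 and 4.

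**Figure D2:**
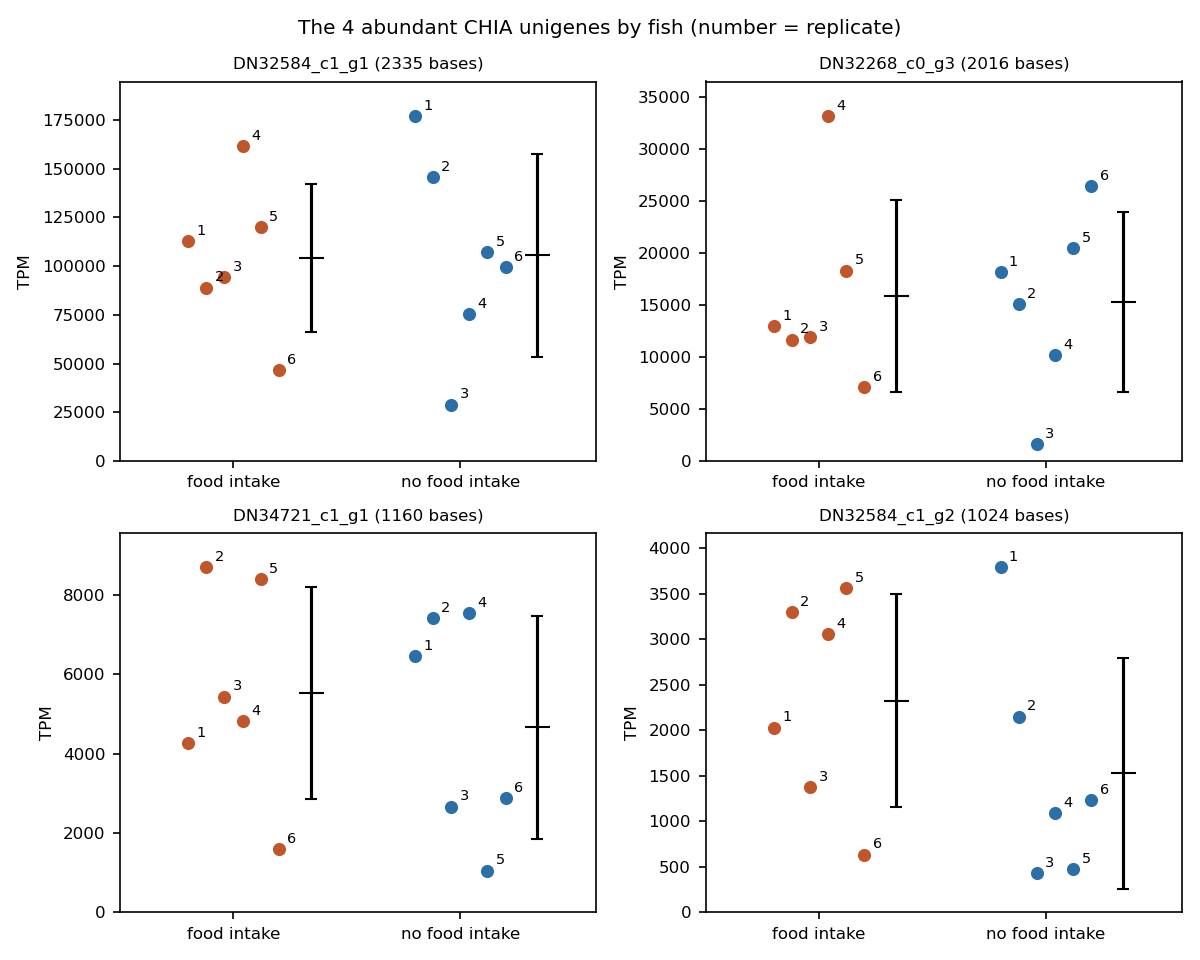
TPM (vertical axis, from 0) of the 4 abundant CHIA unigenes in each fish, food intake left and no food intake right, with the replicate number beside each point and the mean ± SD as a bar. The groups overlap in all 4, and food intake 6 and no food intake 3 are the lowest of their group for the first, second and the fourth unigenes, whereas no food intake 5 is the lowest for the third.

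The group difference was read from limma on log2(TPM + 1) over 40142 unigenes with at least 1 TPM in at least 6 libraries, a scale on which folds of low unigenes are understated. Of the 9 CHIA unigenes, 6 passed this filter and 0 were called at an adjusted p under 0.05, where the share called over all unigenes was also 0%. At an unadjusted p under 0.05 the share over all unigenes was 6.27% (997 or 2.48% higher, 1521 or 3.79% lower), and 0 of the 6 CHIA unigenes reached it. With the rRNA-like unigenes removed and the rest rescaled, that split was 2279 higher and 1014 lower. The fold changes of CHIA were above 0 for 4 of 6, with a median of 0.19, beside 46.0% of all unigenes and a median of −0.04. None of the 6 had groups that did not overlap, a pattern seen in 0.0249% of all unigenes as higher with food intake and in 0.142% as lower.

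The first unigene averaged 104137 ± 38182 TPM with food intake and 105558 ± 52085 TPM with no food intake, and its log2 fold change was 0.09 (SE 0.56, 95% interval −1.09 to 1.27, limma adjusted p = 0.990). For the second unigene, with 15835 ± 9199 TPM in fed and 15286 ± 8620 TPM in unfed fish, it was 0.28 (SE 0.64, interval −1.07 to 1.64, adjusted p = 0.965). These intervals leave room for more than a doubling or a halving of either transcript. The third unigene averaged 5530 ± 2678 TPM with food intake and 4666 ± 2805 TPM with no food intake, and had a log2 fold change of 0.36 (SE 0.57, interval −0.85 to 1.57, adjusted p = 0.945). The fourth, at 2326 ± 1172 TPM in fed and 1529 ± 1272 TPM in unfed fish, had the largest fold change of the 6 on this scale, 0.80 (SE 0.59, interval −0.43 to 2.04, adjusted p = 0.853). Leaving out no food intake 3 turned the value of the first to −0.25 and of the second to −0.29, and the first also turned without food intake 4, at −0.06.

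**Figure D3:**
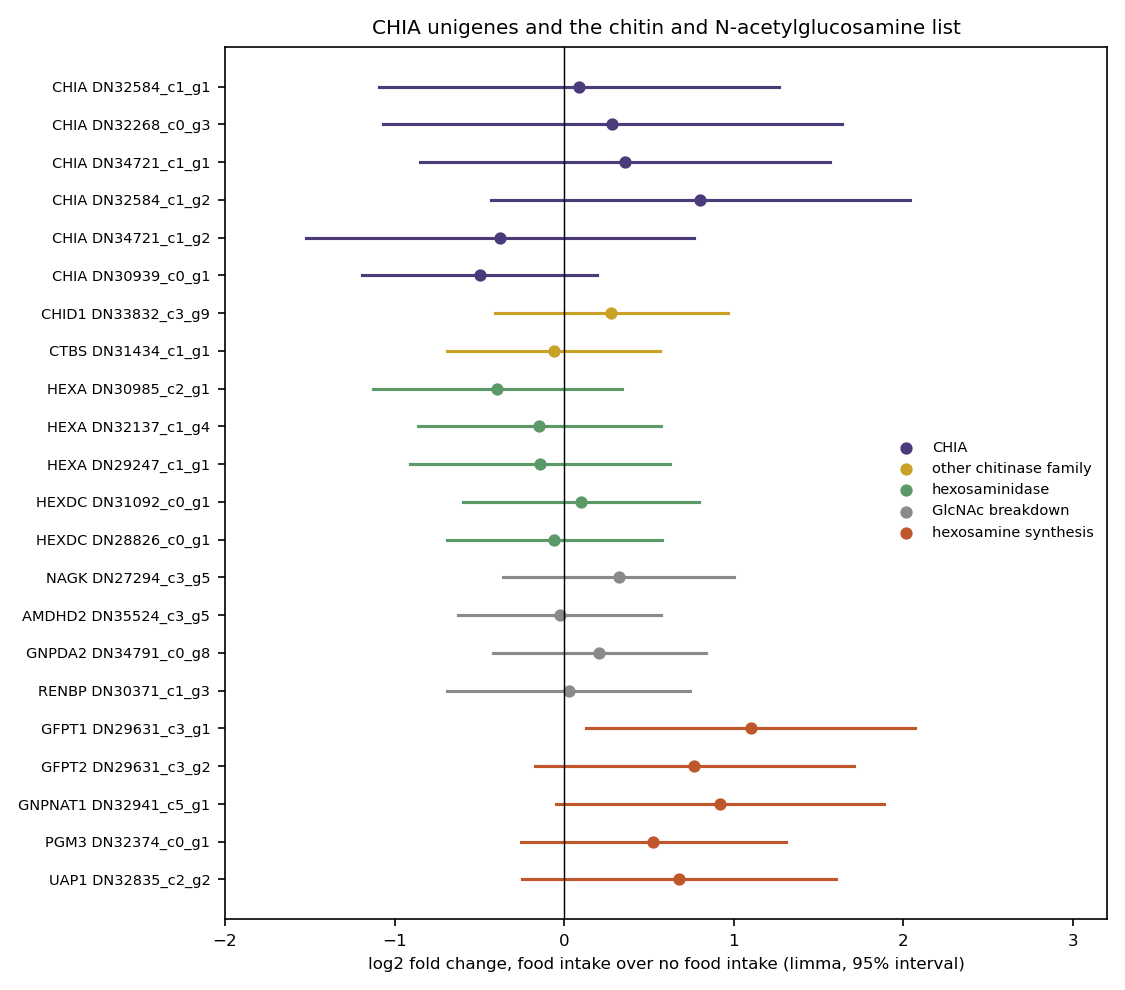
Log2 fold change, food intake over no food intake, with its 95% interval from limma (horizontal axis) for the 6 tested CHIA unigenes and 16 unigenes of the chitin and N-acetylglucosamine list, coloured by role. All CHIA intervals include 0, and the 5 hexosamine synthesis unigenes lie between 0.52 and 1.10.

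The other 5 CHIA unigenes were rare and together made up 0.0055% to 0.0501% of the summed CHIA level. The fifth, TRINITY_DN34721_c1_g2, 968 bases long with a best match in the channel catfish Ictalurus punctatus, shares the cluster of the third. It averaged 9.30 ± 7.29 TPM with food intake and 14.7 ± 14.9 TPM with no food intake (log2 fold change −0.38, SE 0.54, adjusted p = 0.935), and its highest value, 43.6 TPM, was no food intake 4. The sixth, TRINITY_DN30939_c0_g1, 1629 bases and herring-matched, averaged 0.975 ± 0.952 TPM with food intake and 1.61 ± 0.561 TPM with no food intake (log2 fold change −0.50, SE 0.33, unadjusted p = 0.148, adjusted p = 0.837). It reached 1 TPM in 7 libraries and was lowest, at 0.15 TPM, in food intake 6. The eighth, TRINITY_DN25387_c0_g1, a 357-base fragment matched to an uncharacterised zebrafish protein, lay between 0.18 and 2.06 TPM and reached 1 TPM in 5 libraries, so it was not tested.

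The seventh unigene followed the chicken-match split. TRINITY_DN21730_c0_g1, 1378 bases, best matches the acidic mammalian chitinase precursor of the rat, and it had 1.56 to 3.57 TPM in the 5 libraries without chicken mitochondrial matches, against 0.07 to 0.18 TPM in the 7 libraries with them. Both feeding groups were present on each side, and it was not tested between them because it reached 1 TPM in only 5 libraries. Of 301 unigenes with a rat best match, 18 (5.98%) were likewise higher in all of those 5 libraries than in all of the 7, against 239 of all 63567 unigenes (0.376%). The 18 include rat-matched Pgc, Tff2, Gkn3 and Muc6, which encode gastricsin precursor, a trefoil peptide, a gastrokine and a gel mucin of the mammalian stomach. They also include rat-matched Anpep, S100g, an intestinal alkaline phosphatase, Apoa1 and Cyp3a9, which are known from intestine or liver. The rat-matched Pgc, for example, had 94.0 to 218 TPM in the 5 libraries and 29.7 to 77.5 TPM in the 7. Summed over all rat-matched unigenes, however, the level was 805 to 2153 TPM in the 5 libraries and 746 to 2266 TPM in the 7. The total thus did not follow the split, and what set the 18 apart was not tested.

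The ninth, TRINITY_DN23945_c0_g2, 1054 bases, best matches chitotriosidase-1 of the galago Otolemur garnettii, the phagocyte chitinase of mammals. It had 5.04 TPM in food intake 5 and was listed at 0 in the other 11 libraries. The other unigene of its cluster, 303 bases and named Chit1, best matches chitotriosidase-1 of the mouse. It showed the same pattern, with 13.0 TPM in food intake 5 and 0 elsewhere. Food intake 5 held 222 unigenes above 0 in it alone (0.349% of the table), against 1 to 32 in each of the other libraries. Of the 222, 78 have a species match, and 11 of these match thorny-headed worms, a phylum of gut parasites, by mitochondrial proteins that summed to 130 TPM in food intake 5 and to 0 in the other 11. Whether the ninth unigene comes from the fish was not tested.

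**Figure D4:**
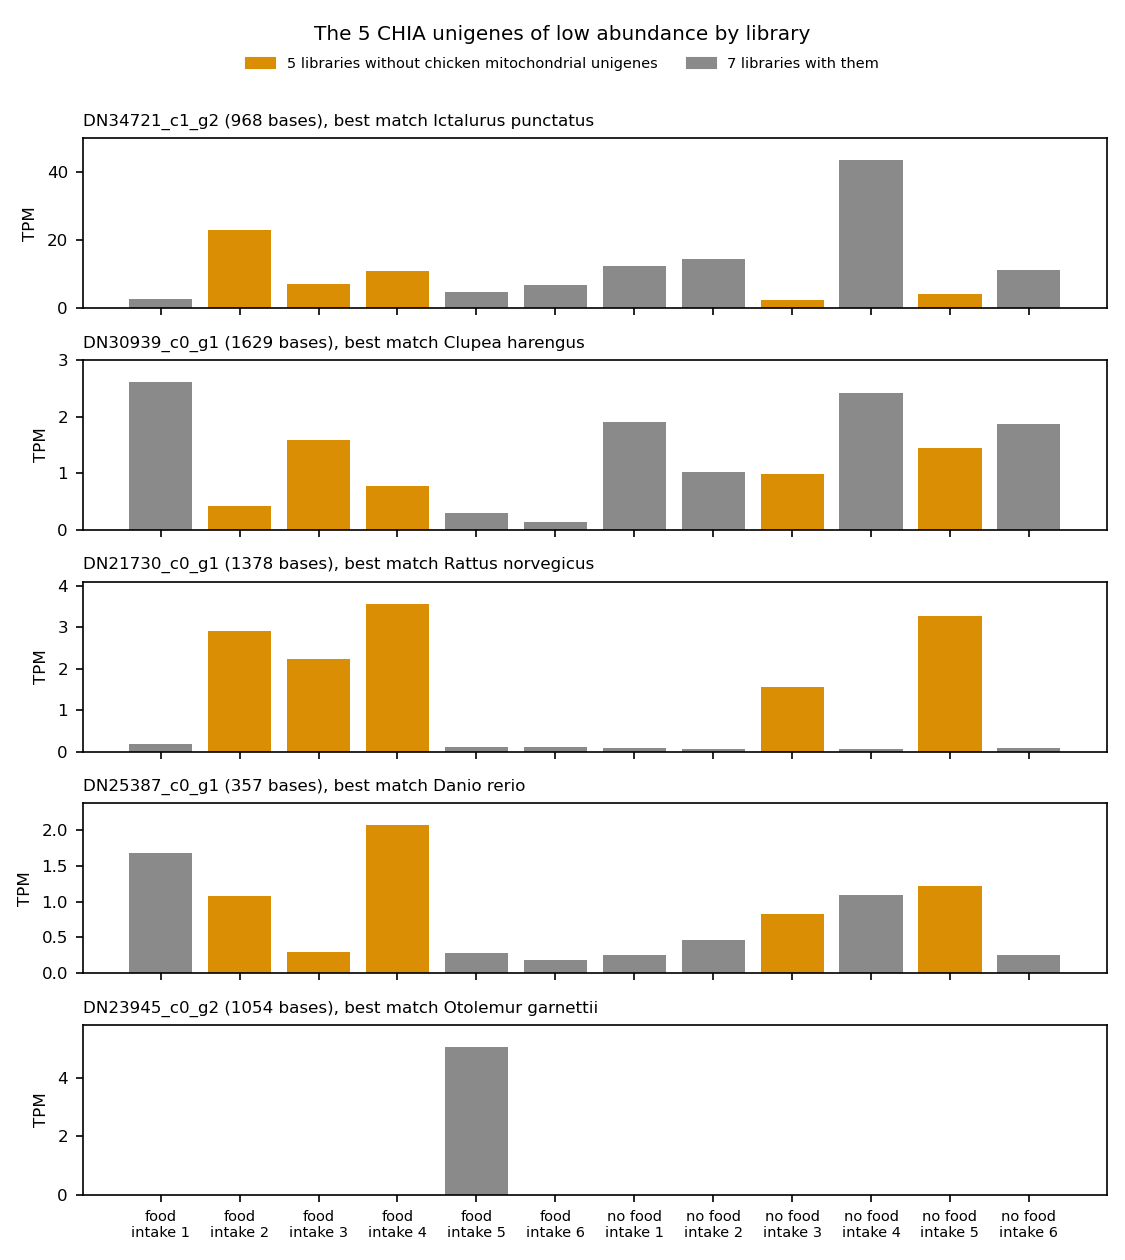
TPM (vertical axes, from 0, a scale per panel) of the 5 rare CHIA unigenes in each library, food intake left and no food intake right, coloured by the presence of chicken mitochondrial unigenes. The rat-matched DN21730_c0_g1 stands at 1.56 to 3.57 TPM in the 5 libraries without them and at 0.07 to 0.18 TPM in the 7 with them, and DN23945_c0_g2 appears in food intake 5 alone.

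Between the library sets, the fold changes of 5 of the 6 tested CHIA unigenes had opposite signs. In the 5 libraries without chicken mitochondrial matches (3 food intake, 2 no food intake), the log2 fold change was 0.99 for the first, 1.55 for the second, 1.87 for the third, 2.40 for the fourth and 1.65 for the fifth unigene. In the 7 with them (3 food intake, 4 no food intake), the values were −0.46 for the first, −0.47 for the second, −0.56 for the third, −0.13 for the fourth and −1.71 for the fifth. The sixth was negative in both, at −0.24 in the 5 and −0.65 in the 7. Among all unigenes, 37.8% were likewise higher with food intake in the 5 and lower in the 7, so the direction alone is not particular to CHIA. The no food intake side of the 5 is only no food intake 3, the library rich in smooth muscle transcripts, and no food intake 5. Without no food intake 3, the difference between the sets (the 5 minus the 7) was 0.51 for the first unigene, beside 1.45 with all libraries. For the second it was 0.17, beside 2.02. Without no food intake 5 they were 2.40 for the first and 3.86 for the second. These differences thus depend on which of the 2 no food intake fish is kept. After rescaling without the rRNA-like unigenes, the differences of the first to the fifth were 0.72, 1.28, 1.69, 1.80 and 2.77. With all unigenes they were 1.45, 2.02, 2.43, 2.53 and 3.36. The rRNA-like share in the 5 libraries was 4.34% to 15.8% with food intake and 26.5% and 26.9% with no food intake. In the 7 it was 7.01%, 16.4% and 64.2% with food intake and 6.12% to 13.45% with no food intake. Its part in these differences was not tested.

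The fifth unigene showed the opposite signs most clearly, for its groups separated in both sets. In the 5 libraries it had 23.1, 7.16 and 10.9 TPM in food intake fish and 2.51 and 4.09 TPM in no food intake fish. In the 7 libraries it had 2.83, 4.87 and 6.90 TPM in food intake fish and 12.3, 14.5, 43.6 and 11.3 TPM in no food intake fish. Every fed fish was thus higher than every unfed fish among the 5, which held for 16.5% of all unigenes, and lower among the 7, which held for 7.25%, and 0.680% showed both. The log2 fold changes differed by 3.36 between the sets (SE 0.81, limma interaction, unadjusted p = 7.5e-04, adjusted p = 0.608), a test added after these values were seen. The third and the fourth unigenes differed between the sets by 2.43 (SE 0.98, unadjusted p = 0.0254) and 2.53 (unadjusted p = 0.0224), with adjusted p of 0.756 and 0.748. At an unadjusted p under 0.05 the interaction picked 3 of 6 CHIA unigenes, beside 6.36% of all. At an adjusted p under 0.05 it picked 0 of 6, beside 0%. The 3 are not independent, since the third and the fifth share a cluster and the third and the fourth were correlated (r = 0.81). With each library left out, the difference ran from 1.76 to 3.10 for the third and from 1.84 to 3.08 for the fourth unigene. For the fifth it ran from 2.93 to 3.71. The fifth was at 2.77 after rescaling without the rRNA-like unigenes (limma interaction, adjusted p = 0.763). With a pseudocount of 0.1 it was at 3.78 (limma interaction, adjusted p = 0.521). Leaving out either no food intake fish of the 5 libraries leaves 1 there, which is assumed to vary like the other fish.

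The make-up of the CHIA pool was dominated by the same transcript in every fish. The first unigene supplied 76.6% to 86.2% of the summed CHIA level, the second 4.73% to 20.3%, the third at most 8.02% and the fourth 0.367% to 2.93%. The second unigene was scarcest relative to the first in no food intake 3, where their log2 ratio was −4.18, and richest in no food intake 6, where it was −1.92. This ratio averaged −2.79 ± 0.29 with food intake and −2.99 ± 0.79 with no food intake (SD, n = 6 each), a difference of 0.20 (two-sided exact permutation test over 924 splits, p = 0.597). Without no food intake 3 the difference was −0.04. The third unigene supplied the least, 0.814% of the pool, in no food intake 5 and the most, 8.02%, in no food intake 4. Set against the pepsinogens, summed CHIA was 0.905 ± 0.285 times the summed PGA and PGC level with food intake (0.642 to 1.36) and 1.24 ± 0.244 times with no food intake (0.957 to 1.64), values given as a description. Summed PGA was 7.64% ± 2.72 of the library with food intake and 5.62% ± 3.07 with no food intake. For summed PGC the values were 7.46% ± 3.46 and 5.00% ± 2.14, and the mean CHIA share was 12.9% in both groups. The ratio thus differed through the pepsinogen shares.

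Across the 12 fish, some pairs of CHIA unigenes were more closely correlated than others. Of 15 pairs among the 6 tested unigenes, 3 were correlated at an adjusted p under 0.05 by both measures (permutation test with 100000 resamples, adjusted over the 15 pairs). Levels in a library share 1 total, and unigenes of 1 cluster can share reads, so the pairs are not independent measurements. The first and the second unigenes, from different clusters, had Pearson r = 0.89 (adjusted permutation p = 0.00465) and Spearman rho = 0.78 (adjusted permutation p = 0.0482). Within groups r was 0.93 in food intake and 0.88 in no food intake fish, and it was 0.72 in the 7 libraries with chicken mitochondrial matches. The set of 5 libraries is too small for a correlation. Without no food intake 3 and food intake 6, the pair farthest from the median, r was 0.58, so much of this relation rests on those libraries.

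The first and the fourth unigenes, which share a cluster, had r = 0.75 (adjusted permutation p = 0.0170) and rho = 0.73 (adjusted permutation p = 0.0482), with 0.83 in food intake fish, 0.77 in no food intake fish and 0.91 in the 7 libraries. Their r was 0.51 without the same pair of libraries. The third and the fourth, of different clusters, had r = 0.81 (adjusted permutation p = 0.0130) and rho = 0.73 (adjusted permutation p = 0.0482), with 0.89 in food intake fish, 0.75 in no food intake fish and 0.74 in the 7 libraries. Without no food intake 5 and food intake 6, their r was 0.67. By contrast the first and the third unigenes, both matched to sardine chitinase1, had r = 0.41 over the 12 fish (adjusted permutation p = 0.439). Their r was 0.66 in food intake fish, 0.28 in no food intake fish and 0.69 in the 7 libraries. Without no food intake 3 and food intake 6 it was 0.05. No food intake 5, which is not among the 7, held a level of the first above the median of its group with the lowest level of the third. After rescaling without the rRNA-like unigenes, or with both libraries that stood apart left out, 0 of the 15 pairs passed the threshold. After rescaling, r was 0.87 for the first and the second (adjusted permutation p = 0.0514), 0.72 for the third and the fourth (adjusted permutation p = 0.0514) and 0.62 for the first and the fourth (adjusted permutation p = 0.124). With both libraries left out, which also leaves fewer fish, it was 0.58 for the first and the second, 0.77 for the third and the fourth, and 0.51 for the first and the fourth.

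**Figure D5:**
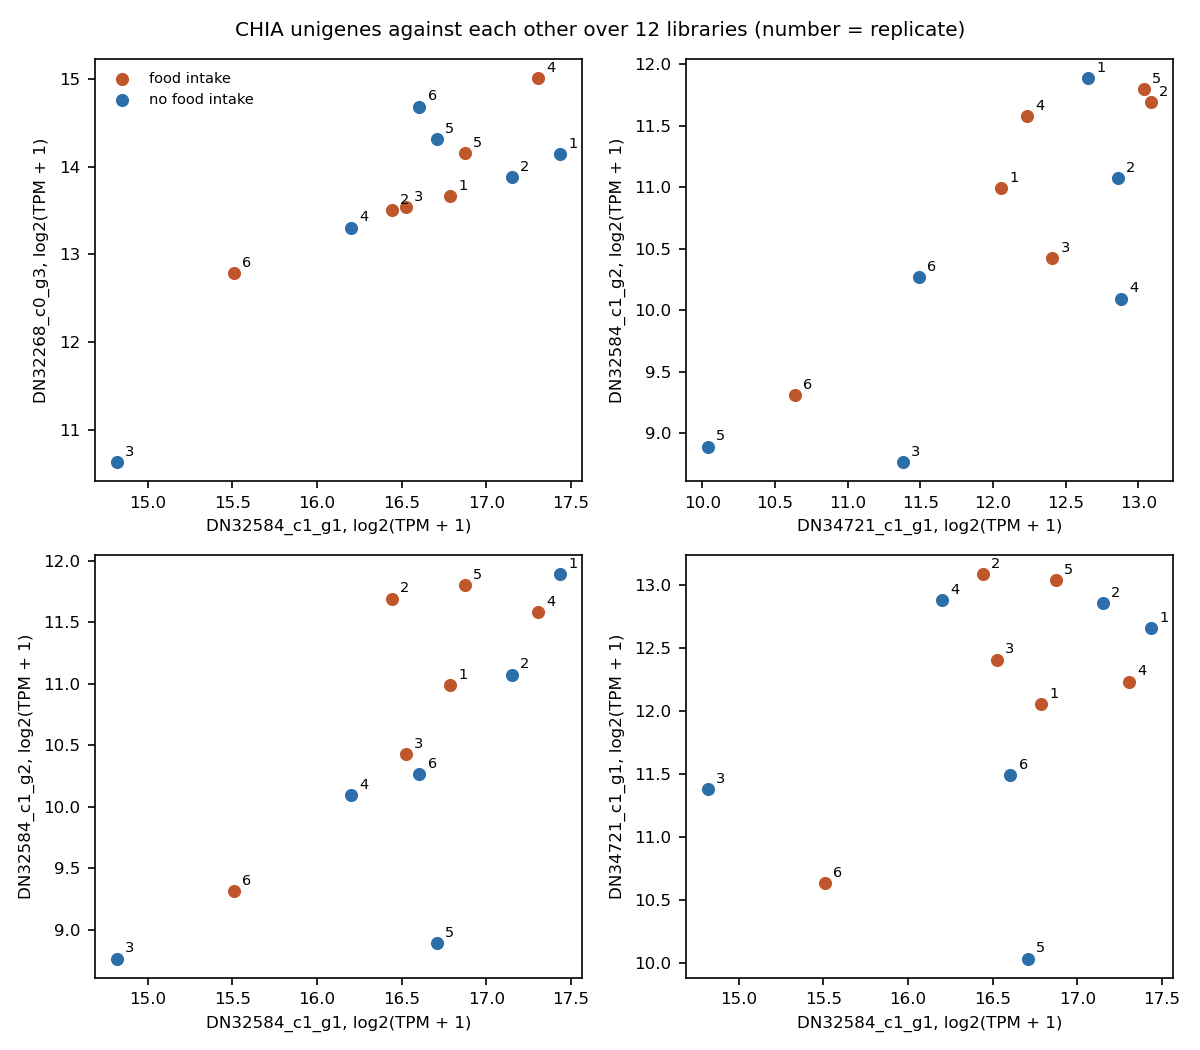
Levels of CHIA unigenes against each other as log2(TPM + 1) on both axes, 1 point per fish with its replicate number, food intake and no food intake in different colours. The first and the second unigenes (top left, r = 0.89) lie along a line whose low end is no food intake 3 and food intake 6. The first and the third (bottom right, r = 0.41) follow a line less closely.

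The named unigenes closest to the first CHIA unigene were sought among 1810 candidates, by Pearson r of log2 levels over the 12 libraries, which share a total with CHIA. In order they were gapdh, which encodes a glycolytic enzyme (r = 0.94), COL8A1, whose best match is a complement C1q-like protein (r = 0.92), ssr1, a subunit of the translocon-associated complex of the endoplasmic reticulum (r = 0.91), rtn1-a, a reticulon of that membrane (r = 0.89), and Kcne2, a subunit of the potassium channel that serves gastric acid secretion in mammals (r = 0.88). Of these 5, all but COL8A1 were lowest in no food intake 3. Without that library r was 0.88 for gapdh, 0.92 for COL8A1, 0.82 for ssr1, 0.77 for rtn1-a and 0.72 for Kcne2. COL8A1 was lowest in food intake 6, the library rich in rRNA-like unigenes. After rescaling without those unigenes, r was 0.89 for gapdh, 0.75 for COL8A1, 0.85 for ssr1, 0.82 for rtn1-a and 0.85 for Kcne2. The order thus depends on the scaling.

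Other enzymes of chitin and N-acetylglucosamine metabolism were present at up to 28.2 TPM and were not called. Of 24 genes on a list by role, 14 were found, not counting a unigene named CHS, the symbol of a chitin synthase, whose best match is a chalcone synthase. Of their 16 tested unigenes, 10 had a fold change above 0 and 6 below (median 0.15), beside 46.0% of all unigenes above 0. A limma unadjusted p under 0.05 was reached by 1, beside 6.27% of all unigenes, and an adjusted one by 0, beside 0%. CHID1, a chitinase-domain protein, had a log2 fold change of 0.28, and CTBS, the lysosomal di-N-acetylchitobiase that trims chitin-like ends of glycans, had −0.06. The hexosaminidases, which release terminal amino sugars (HEXA and HEXDC), were above 0 in 1 of 5 unigenes, with a median of −0.14. The enzymes that break down free N-acetylglucosamine and its relatives (NAGK, AMDHD2, GNPDA2 and RENBP) were above 0 in 3 of 4, with a median of 0.12.

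The 5 enzymes that make UDP-N-acetylglucosamine, the building block of chitin and of mucin glycans, all had a fold change above 0 (median 0.77). Over all unigenes 46.0% did, and none of the 5 was called. GFPT1, which commits fructose 6-phosphate to this route, had 4.69 ± 4.54 TPM with food intake and 1.13 ± 0.724 TPM with no food intake (log2 fold change 1.10, SE 0.46, unadjusted p = 0.028, limma adjusted p = 0.774). The fed fish ran from 0.47 to 12.7 TPM and the unfed fish from 0.26 to 2.0 TPM, so the groups overlapped. GFPT2, whose unigene shares the assembly cluster of the GFPT1 unigene, had 6.55 ± 4.11 TPM with food intake and 3.09 ± 1.91 TPM with no food intake (log2 fold change 0.77). Reads of near-identical stretches may be split between both unigenes, so their values are not independent. GNPNAT1, the acetyltransferase, had 9.05 ± 5.13 and 3.61 ± 1.71 TPM in fed and unfed fish (0.92), and the mutase PGM3 had 6.09 ± 3.47 and 3.43 ± 1.07 TPM (0.52). UAP1, the last enzyme of the route, had 16.2 ± 8.45 TPM with food intake and 8.43 ± 2.96 TPM with no food intake (0.68). In food intake 6, the library rich in rRNA-like unigenes, each of the 5 was at its lowest among fed fish, from 0.47 TPM for GFPT1 to 2.28 TPM for UAP1. The surface mucous list, over 5 of 5 genes, summed to 1136 to 12330 TPM with food intake (median 3765) and 1043 to 4183 TPM with no food intake (median 2541), and its part in these values was not tested.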

How the data were processed

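In the deposited table each unigene has a value in each of 12 stomach libraries. The authors' header names no unit, and the values were read as TPM from near-equal totals of just under 1000000 per column. Another per-million scale would give such totals too, so the correction for length is assumed. Shares, ranks and comparisons between unigenes of different length rest on it. Per the submitters' processing notes, cutadapt and FastQC were used, without versions. How the TPM were computed, and whether unigenes were filtered, is not given in the sources used here. With depth unknown, precision rests on how much fish of a group differ. Each sample column matched 1 label, and 0 pairs of libraries were identical.

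From these TPM values, limma 3.58.1 (R 4.3.3, data.table version 1.17.8) was fitted with a trend to log2(TPM + 1), with group as the only term, for unigenes that reached 1 TPM in 6 or more libraries. Adjusted p is by Benjamini and Hochberg over all 40142 unigenes, with a threshold of 0.05. Single values were compared by exact permutation, and unigene pairs by permutation with 100000 resamples, in Python 3.11.15 (numpy 2.4.6, pandas 2.3.3, scipy 1.17.1, matplotlib 3.10.9). The fits were tested on simulated data, with large shifts planted in the less variable unigenes. This check does not measure the power to detect changes in CHIA. The rRNA-like unigenes have a mean of at least 1000 TPM and r of at least 0.95 with the ART2 unigene. The CHIA unigenes, the gene lists and the library sets were chosen with earlier results of these data known. Other genes were named by fixed rules: the 5 named unigenes with the highest r to the first CHIA unigene (1 per gene name, mean of at least 10 TPM), and the members of the chitin list by role, 1 of which is not reported here. Alternatives were other pseudocounts, filters, scalings and prior variances, a replicate block, the library sets and each library left out. Added after seeing the data were the fits without both libraries that stood apart and the interaction with the library set.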

Additional observations from a re-analysis of the deposited data

Results flagged for a closer look

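Over 34 groups of 6 fish checked on the log scale (or as a share or ratio), 3 values lay far from the other 5 by Dixon's criterion. Its chance rate of about 1 in 20 holds for independent normal values. These groups share libraries and unigenes, so the rate is only a rough guide. The second CHIA unigene, TRINITY_DN32268_c0_g3, had 1586 TPM in no food intake 3, against 10129 to 26362 TPM in the other no food intake fish. In that library the smooth muscle level was 26409 TPM and the oxynticopeptic level 24760 TPM, and their part in the low CHIA value was not tested. The ninth CHIA unigene, TRINITY_DN23945_c0_g2, had 5.04 TPM in food intake 5, against 0 in the other food intake fish, so any level above 0 would have been flagged. Its no food intake group, all at 0, counts among the 34 but could not be flagged. UAP1, the last enzyme of UDP-N-acetylglucosamine synthesis, had 2.28 TPM in food intake 6, against 13.8 to 28.2 TPM in the other food intake fish, and the rRNA-like unigenes took 64.2% of that library.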

How the results depend on the processing

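No tested CHIA unigene was called under any of the 23 alternatives, and over all tested unigenes the count was 0 except with quantile normalization (2), after rescaling without the rRNA-like unigenes (1) and with libraries left out (0 to 1, with 1 without no food intake 4). Rescaling gave a median log2 fold change over all unigenes of 0.06, beside −0.04. The fourth CHIA unigene moved to 1.34 with quantile normalization (95% interval 0.31 to 2.36, limma unadjusted p = 0.0144, adjusted p = 0.523). Under that setting 1635 of 40142 unigenes were higher and 1866 lower at an unadjusted p under 0.05. After rescaling the fourth was at 0.96 (limma unadjusted p = 0.0563, adjusted p = 0.617). The signs of the CHIA fold changes, none of them called, depended on the libraries. In the 7 libraries with chicken mitochondrial matches they were −0.46 for the first, −0.47 for the second, −0.56 for the third and −0.13 for the fourth unigene, and in the 5 without them 1.65 for the fifth. Without food intake 6 and no food intake 3 they were −0.033 for the first and −0.09 for the second. With each library left out, the first ran from −0.25 to 0.30, the second from −0.29 to 0.52, the third from −0.01 to 0.68, the fourth from 0.52 to 1.15, the fifth from −0.72 to 0.017 and the sixth from −0.70 to −0.37. A pseudocount of 0.1 gave −1.08 for the sixth, beside −0.50, and 0.80 for the fourth (limma adjusted p = 0.837 and 0.875). The difference in the first unigene's percent of library, −0.14, was 0.806 after rescaling, 0.0359 between medians, 4.78 in the 5 libraries, −3.15 in the 7 and −1.69 to 1.31 with each library left out. The log2 ratio of the second to the first, 0.20, was −0.012 in the 7 libraries, −0.057 without food intake 6 and no food intake 3, and −0.043 to 0.41 with each library left out. The summed CHIA percent differed by 0.0826, by 6.24 in the 5 libraries, by −3.76 in the 7 and by −1.81 to 1.67 with each library left out. Of the 3 correlated pairs, 0 passed after rescaling (r = 0.62 to 0.87) and 0 without food intake 6 and no food intake 3 (r = 0.51 to 0.77). The causes of these shifts were not tested. A minimum of 5 TPM left the sixth CHIA unigene untested, as well as GFPT1, GFPT2 and PGM3. It gave 3 list unigenes above 0, a count over fewer tested unigenes. Of these, 2 were for hexosamine synthesis, GNPNAT1 (0.92) and UAP1 (0.68). No pairing by replicate number was seen. After the group mean of each unigene was subtracted from its log2 levels, same-numbered libraries correlated at −0.10 to 0.11. This does not show how the fish were paired by design. The replicate block left all CHIA calls at 0 (log2 fold change of the first 0.09, percent difference −0.14 with exact permutation p = 1, ratio 0.20 with exact permutation p = 0.531). Depth is unknown, so values near 1 TPM have no known counting error.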
